A study of Mus musculus with 6 samples.

Results

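Platelet chemokines and megakaryocyte glycoproteins were followed in hearts of E10.5 mouse embryos through 9 genes, Ppbp, Pf4, Gp9, Gp1ba, Gp1bb, Gp5, Gp6, Itga2b and Treml1. A gene was read where a probe set of the array was annotated to it alone. This held for 8 of the 9 genes, through 9 probe sets, out of 18193 genes with such a probe set on the array. Gp1ba was not analysed here. The samples were 3 arrays of Rnd3 knockout (KO) and 3 of wild-type (WT) embryonic heart RNA, all of the C57BL/6N background, on an Affymetrix mouse array. Rnd3, also called RhoE, restrains the kinase ROCK1. The knockout is a gene trap present in every cell of the embryo, and such embryos die from about this stage on. The labels do not say whether an array holds 1 heart or several, nor whether the replicates are separate litters, so the p-values measure the spread between these arrays.

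Megakaryocytes are the large blood cells that shed platelets, and their first forms in the embryo arise in the yolk sac and circulate with the primitive red cells through the beating heart. Platelets store the CXC chemokines Ppbp and Pf4 in their alpha granules and release them on activation. Their surface carries the GPIb-IX-V complex, the receptor for von Willebrand factor that is built from the products of Gp1ba, Gp1bb, Gp9 and Gp5. It also carries the collagen receptor GPVI (Gp6) and the fibrinogen receptor, an integrin of the Itga2b and Itgb3 products. Itga2b (CD41) also marks early blood progenitors of the embryo, and Pf4 is known from some macrophages. In whole hearts, more cells of a type and more RNA per cell cannot be told apart.

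Ppbp and Pf4 are neighbours on mouse chromosome 5. In the RefSeq annotation of GRCm38.p6, Ppbp spans 90768518 to 90770063 and Pf4 spans 90772435 to 90773383, both on the plus strand, with 2371 bases and 0 annotated genes between them. The 250 bases before the RefSeq start of these genes are shown because the pair lies side by side and only 1 of them passed the test below. Those of Gp5 are shown as a glycoprotein promoter in which blood-factor motifs were found. Capitals mark, on either strand, the GATA factor letters (GATAA or GATAG with an A or a T before them), the Ets factor letters GGAAGT and the TATA box letters TATAAA; no marked stretches overlapped.
Ppbp, GRCm38.p6 chr5:90768268-90768517, plus strand: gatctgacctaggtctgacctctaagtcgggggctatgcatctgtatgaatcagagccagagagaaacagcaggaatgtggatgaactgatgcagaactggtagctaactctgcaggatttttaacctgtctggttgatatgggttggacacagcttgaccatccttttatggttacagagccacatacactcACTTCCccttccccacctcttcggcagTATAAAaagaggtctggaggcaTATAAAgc
Pf4, GRCm38.p6 chr5:90772185-90772434, plus strand: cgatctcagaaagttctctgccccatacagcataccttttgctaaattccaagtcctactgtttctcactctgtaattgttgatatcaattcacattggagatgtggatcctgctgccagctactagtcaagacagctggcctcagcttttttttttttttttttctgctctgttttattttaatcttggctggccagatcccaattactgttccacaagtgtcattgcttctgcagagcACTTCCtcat
Gp5, GRCm38.p6 chr16:30310782-30311031, minus strand: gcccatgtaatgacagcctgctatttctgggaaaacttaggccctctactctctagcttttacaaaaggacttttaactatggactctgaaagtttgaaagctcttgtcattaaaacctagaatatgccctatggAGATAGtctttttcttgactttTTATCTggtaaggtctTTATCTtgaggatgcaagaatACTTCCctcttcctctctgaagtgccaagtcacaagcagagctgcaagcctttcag

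The Ppbp window held 2 TATAAA matches, the nearer one 8 to 3 bases and the other 30 to 25 bases before the start, and 1 Ets match. The Pf4 window held 1 Ets match 10 to 5 bases before the start and neither of the other motifs. The Gp5 window held 3 GATA matches and 1 Ets match. Over all 9 genes, GATA letters were found in 4 windows (Gp1ba, Gp1bb, Gp5 and Gp6) and Ets letters in 5 (Ppbp, Pf4, Gp9, Gp5 and Itga2b). TATAAA was found in 1, that of Ppbp. Among all 32851 RefSeq windows of this length, 26.5% held GATA letters, 19.7% held Ets letters and 12.4% held TATAAA. The windows lie before the start used in the RefSeq promoter table, and those of Gp9, Gp6 and Gp1ba reach 250, 107 and 20 bases into the gene's full span. A match describes the letters of the window and not a used site.

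Ppbp was 2.03-fold higher in KO hearts, and no other platelet gene passed the test over all genes. Pf4 lay between 1082 and 1454 in KO and between 860 and 1133 in WT without passing. The probe sets used for Gp9, Gp1bb, Gp5, Itga2b and Treml1 overlapped between the groups. Of the 7 genes bright enough to be tested, 1 rose, 0 fell and 6 did not pass. Over all 12712 tested genes 0.787% were called higher and 0.488% lower in KO (1.27% in all), at an adjusted p of 0.05 (limma, Benjamini-Hochberg). Log2 fold changes were positive for 5 of the 7, among them Itga2b at 0.04 (SE 0.16). Their median was 0.27, against -0.04 over all tested genes. In absolute size the median was 0.34, against 0.17 over all tested genes. Standard errors of the 7 ran from 0.14 (Pf4) to 0.78 (Gp9). The genes were chosen with earlier results of these data known and were not tested as a set, so no conclusion is drawn from these medians. All values are MAS5 signals per probe set on a linear scale, and levels of different probe sets are not compared.

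**Figure D1:**
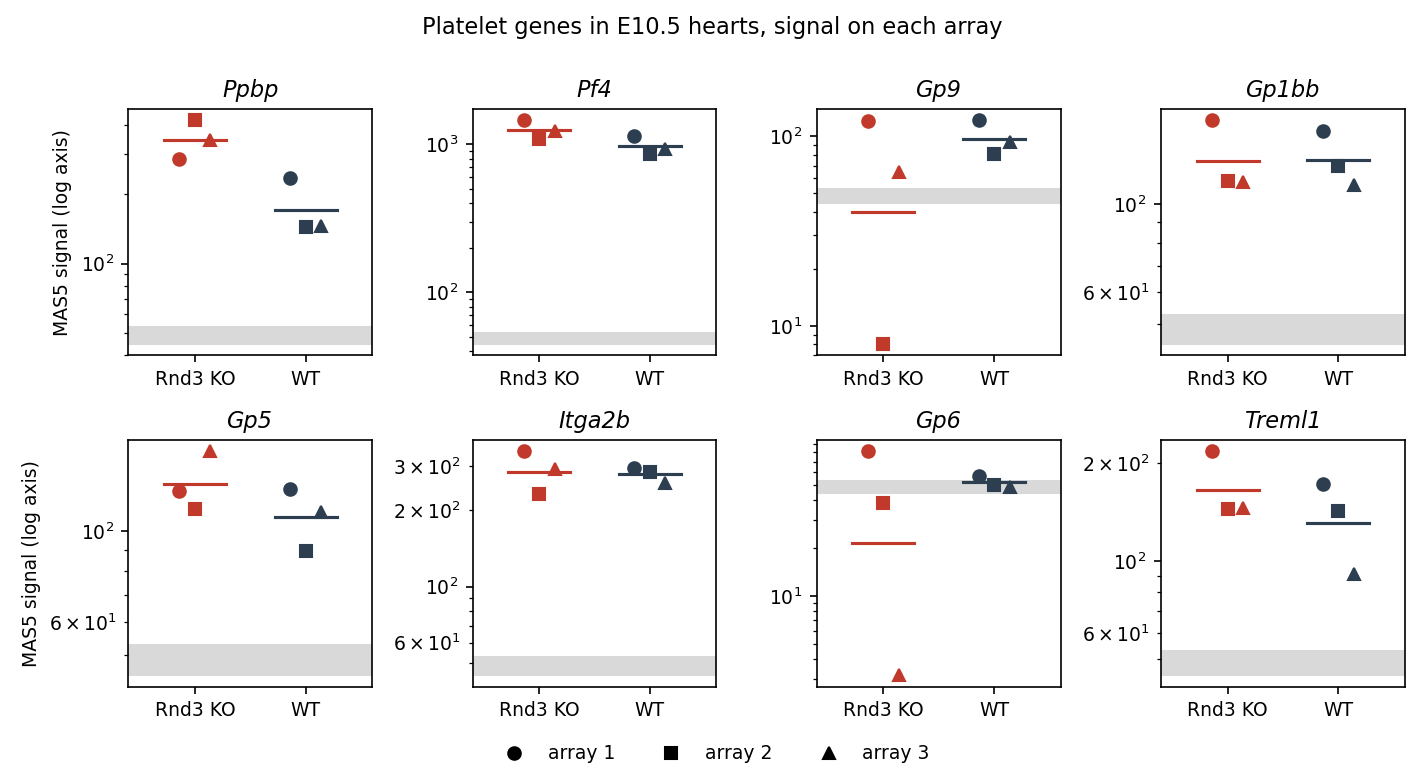
MAS5 signal (log axis) of the probe set used for each gene on the 3 KO and 3 WT arrays; symbols give the array number, lines the mean of the log2 signals, and the grey band the range of the arrays' low-signal limits (44.5 to 52.8). The 3 KO arrays lie above the 3 WT arrays for Ppbp alone, and Gp9 and Gp6 each have KO arrays below the band.

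Among the chemokines, Ppbp encodes the precursor of the neutrophil-attracting peptide CXCL7. Its probe set read 286, 421 and 345 on KO arrays 1 to 3, against 236, 145 and 146 on WT arrays 1 to 3. All 3 KO arrays lay above all 3 WT arrays, which was also so for 10.8% of all tested genes, and WT array 1 stood closest to the KO arrays. The mean signal was 350 ± 67.6 in KO and 175 ± 52.6 in WT (SD, n = 3 each). The log2 fold change was 1.02 (SE 0.22, 95% interval 0.54 to 1.497, limma adjusted p = 0.049997), so the call lay at the threshold. An exact two-sided permutation test over the arrays gave p = 0.1, the smallest that 3 arrays against 3 allow.

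The direction for Ppbp held under all 19 alternative settings (log2 fold changes from 0.88 to 1.25), but the call held under 8 of them. Leaving out KO array 2 or 3 ended it (adjusted p = 0.103 and 0.144), as did leaving out WT array 1, 2 or 3 (adjusted p = 0.120, 0.209 and 0.146). Few genes of any kind passed in these fits. Of all 12712 tested genes, 65 and 2 passed without KO array 2 or 3, and 0, 0 and 4 without WT array 1, 2 or 3. KO array 2 had the highest Ppbp signal of all 6 arrays.

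Pf4 encodes CXCL4, a heparin-binding chemokine. It read 1454, 1082 and 1238 on the KO arrays and 1133, 860 and 931 on the WT arrays. The groups overlapped, because KO array 2 lay below WT array 1. The mean was 1258 ± 187 in KO and 975 ± 142 in WT (SD, n = 3 each), with a log2 fold change of 0.37 (SE 0.14, 95% interval 0.07 to 0.67) that did not pass (limma adjusted p = 0.170, unadjusted p = 0.0211). An unadjusted p under 0.05 (limma) was found for 2580 of all 12712 tested genes. Over the 19 settings the Pf4 change stayed positive, between 0.26 and 0.48, and passed in none.

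The chemokine genes beside Ppbp and Pf4 on chromosome 5 were mostly dim. Of 5 others within 300 kb of the pair, Cxcl5, Cxcl3, Cxcl15 and Cxcl2 were below the low-signal limit on all 6 arrays. The limit is each array's 40th percentile, a working choice and not a measured background. Cxcl1, named for its place in this cluster after its values were seen, was above it on 5 arrays, with 88.7, 66.6 and 45.8 in KO and 47.3, 129 and 105 in WT, and the groups overlapped (log2 fold change -0.42, SE 0.41, adjusted p = 0.616).

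In the GPIb-IX-V complex, Gp9 encodes the small subunit GPIX, which the complex needs to reach the surface. Gp9 (chromosome 6, 87776131 to 87779786) read 121, 7.998 and 65.1 on the KO arrays, against 122, 80.4 and 93.5 on the WT arrays. KO array 1 equalled the highest WT array to within 1 signal unit, KO array 3 was lower than all WT arrays, and KO array 2 was below the low-signal limit. The log2 fold change of -1.29 (SE 0.78, 95% interval -3.01 to 0.43, adjusted p = 0.387) did not pass, and it rested on KO array 2. Without that array it was -0.13 (adjusted p = 0.886).

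Gp1bb encodes the beta chain of GPIb, which is disulfide-linked to the alpha chain that binds von Willebrand factor. Its brighter probe set read 162, 114 and 113 in KO and 153, 125 and 112 in WT. The groups overlapped fully and the log2 fold change was -0.0083 (SE 0.23, 95% interval -0.51 to 0.50, adjusted p = 0.989). The other Gp1bb probe set read 107, 70.7 and 80.2 in KO and 118, 90.8 and 81.4 in WT, a log2 fold change of -0.18 (SE 0.27) that did not pass when every probe set was fitted on its own. In RefSeq, Gp1bb (chromosome 16, 18620319 to 18622403) shares 593 bases with Septin5, a septin gene. Another probe set, annotated to both genes, read 184, 148 and 117 in KO and 193, 221 and 228 in WT. All its KO values lay below all its WT values, as for 15.5% of tested genes. Its log2 fold change of -0.54 (SE 0.20) did not pass in the fit of every probe set (adjusted p = 0.204), and it is not counted as a Gp1bb value.

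Gp5 encodes GPV, the subunit that thrombin cleaves. It lies on chromosome 16 at 30307685 to 30310781. The probe set read 125, 113 and 156 in KO and 126, 89.2 and 111 in WT, and only KO array 3 lay above all WT arrays. The log2 fold change was 0.27 (SE 0.23, 95% interval -0.24 to 0.78, adjusted p = 0.550). It was 0.14 without KO array 3, 0.13 without WT array 2 and 0.0089 with Xist as covariate.

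Itga2b, the alpha chain of the fibrinogen receptor (chromosome 11, 102453297 to 102469883), read 342, 232 and 292 in KO and 294, 283 and 258 in WT. Both the highest and the lowest of the 6 values were in KO. The log2 fold change was 0.04 (SE 0.16, 95% interval -0.32 to 0.40, adjusted p = 0.922). Its partner Itgb3 read 302, 175 and 274 in KO and 321, 342 and 311 in WT. All its KO arrays lay below all its WT arrays, as for 15.5% of tested genes. That difference did not pass (log2 fold change -0.41, SE 0.19, adjusted p = 0.262).

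Gp6, the collagen receptor (chromosome 7, 4362853 to 4397851), was too dim to be tested. It read 80.9, 38.2 and 3.16 in KO and 57.1, 49.98 and 48.3 in WT, above the low-signal limit on 1 array of each group. The KO values span more than the whole WT range on both sides. Fcer1g, whose product carries the GPVI signal into the cell, read 113, 175 and 89.1 in KO and 110, 82.5 and 60.5 in WT (log2 fold change 0.56, SE 0.32, adjusted p = 0.354). Fcer1g was named for this pairing after its values were seen.

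Treml1 encodes TLT-1, a receptor held in alpha granules and brought to the surface on activation. Treml1 (chromosome 17, 48359916 to 48367176) read 217, 145 and 145 in KO and 172, 142 and 91.0 in WT. KO array 1 was the highest and WT array 3 the lowest, and the other 4 arrays lay between them. The log2 fold change was 0.34 (SE 0.27, 95% interval -0.24 to 0.93, adjusted p = 0.504). It was 0.15 without KO array 1, 0.08 without WT array 3 and 0.54 without WT array 1.

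**Figure D2:**
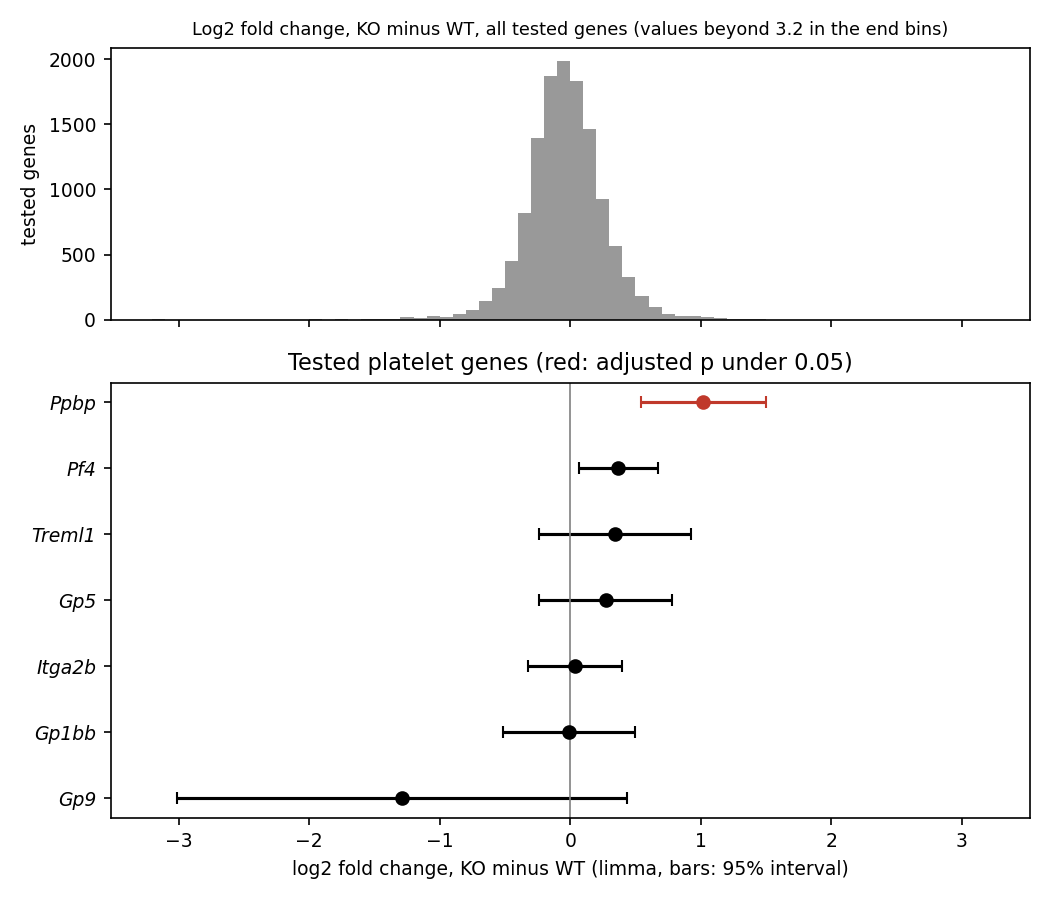
Top, log2 fold changes (KO minus WT) of all 12712 tested genes; bottom, the 7 tested platelet genes with limma's 95% intervals. The interval lies above 0 for Ppbp (1.02) and Pf4 (0.37), with Ppbp alone past the adjusted threshold, and Gp9 has the widest interval.

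Within each group 1 array was the highest for most platelet genes, but the full order of the arrays differed between genes. The 8 measured genes counted here include Gp6, which was too dim to be tested. WT array 1 was the highest WT array for all 8 measured genes, against 31.6% of all tested genes. The lowest WT array was array 2 for 4 of the 8 and array 3 for 4. KO array 1 was the highest KO array for 6 of the 8, the exceptions being Ppbp (array 2) and Gp5 (array 3), against 36.2% of all tested genes. KO array 2 was the lowest KO array for 5 of the 8 (Pf4, Gp9, Gp5, Itga2b and Treml1), against 37.1% of all tested genes, while it was the highest for Ppbp. Ppbp thus ordered the KO arrays the opposite way to Pf4, with arrays 2, 3 and 1 from high to low, against 1, 3 and 2 for Pf4. These counts were made after the values were seen and are a description of 6 arrays.

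The tested genes whose log2 signal ran closest to Ppbp over the 6 arrays were Lgals3bp, Ubxn2a, Khdrbs3, Atf5 and Sptssa, with Pearson r from 0.988 to 0.993. For Pf4 they were Arr3, Pnpla7, Osbpl3, Fam72a and Trit1, with r from 0.968 to 0.981. With 6 arrays such values are common, as 81 named genes had an r above 0.95 with Ppbp and 10 with Pf4. None of these 10 genes passed the test between the groups (limma adjusted p from 0.109 to 0.680), and no gene was among the 5 closest to both.

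The other genes of the megakaryocyte and platelet programme gave no call. Counts at an unadjusted p of 0.05 are given for each list below. Over all 12712 tested genes, 2580 had such a p (limma). Of 10 tested platelet receptors and membrane proteins, 0 passed (limma; 0 also at an unadjusted p of 0.05), with a median log2 fold change of -0.17. Besides Itgb3, the smallest p-values there belonged to Slc24a3, a sodium-calcium-potassium exchanger (-0.36, SE 0.19), and Clec1b. Clec1b encodes the podoplanin receptor CLEC-2 and read 285, 290 and 215 in KO and 221, 228 and 176 in WT (0.33, SE 0.18, adjusted p = 0.312). The ADP receptor genes P2ry1 and P2ry12, the P-selectin gene Selp and the adhesion receptor gene Cd226 were below the low-signal limit on all 6 arrays.

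Of 18 platelet signalling and cytoskeleton genes, 0 passed and the median was 0.05. At an unadjusted p of 0.05 there were 3, against 2580 of all 12712 tested genes. The 3 were Rap1b, the small GTPase that switches on the fibrinogen receptor (0.31, SE 0.09, adjusted p = 0.0929), Plek, the main substrate of protein kinase C in platelets (0.51, SE 0.19), and Myl9, a regulatory myosin light chain (0.15, SE 0.06). All KO arrays lay above all WT arrays for 3 of the 18, as for 10.8% of all tested genes. These were Rap1b and Myl9, which many cells of the heart also express, and Rgs18, a regulator of G protein signalling named after its values were seen (0.49, SE 0.31). Without KO array 1, 1 of the 18 passed, against 7.21% of all tested genes. Plek read 362, 307 and 255 in KO and 266, 175 and 210 in WT, with KO array 3 below WT array 1.

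Of 15 genes of platelet granule cargo, 0 passed (2 at an unadjusted p of 0.05) and the median was 0.03. Ecm1, a matrix protein, was lower on all KO arrays, as were 15.5% of tested genes (-0.33, SE 0.10, adjusted p = 0.105). Thbs1, thrombospondin-1, had 0.32 (SE 0.15), and Srgn, the proteoglycan that holds chemokines such as Pf4 in the granule, had 0.52 (SE 0.25). Srgn read 151, 208 and 189 in KO and 179, 115 and 98.4 in WT. Vwf, the ligand of the GPIb-IX-V complex and named for that reason after its values were seen, read 1046, 929 and 1021 in KO and 939, 982 and 870 in WT (0.10, SE 0.10).

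Of 13 transcription factors of megakaryocytes and red cells, 0 passed (3 at an unadjusted p of 0.05) and the median was -0.05. The 3 were Meis1 (-0.32, SE 0.09, adjusted p = 0.0929), Lyl1 (-0.32, SE 0.13) and Gata2 (-0.27, SE 0.12), each lower on all KO arrays than on any WT array, as were 15.5% of tested genes. Meis1 read 1358, 1226 and 1332 in KO and 1641, 1631 and 1615 in WT. All 3 factors act in blood stem and progenitor cells, and Meis1 and Gata2 in other embryonic tissues as well.

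Among the other chemokine genes 0 of 11 tested passed (2 at an unadjusted p of 0.05). Without KO array 1, 2 of the 11 passed, against 7.21% of all tested genes. Of the 31 measured, 13 were below the low-signal limit on all arrays. Ccl27a had -0.56 (SE 0.17, adjusted p = 0.101) and has near-identical copies, so its signal is uncertain. Cxcl12, the ligand of Cxcr4, had 0.56 (SE 0.24) and the monocyte chemokine gene Ccl2 had 0.76 (SE 0.37). Cxcl12 read 1625, 3818 and 3156 in KO and 1634, 1829 and 2037 in WT, so that KO array 1 was lower than all WT arrays. Of 9 tested chemokine receptors 0 passed (0 at an unadjusted p of 0.05), with Ccrl2 at 0.41 (SE 0.24), Ackr3 at 0.21 (SE 0.14) and Ackr1 at -0.28 (SE 0.25). Cxcr2, the receptor for the peptide made from Ppbp, was below the limit on all 6 arrays.

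**Figure D3:**
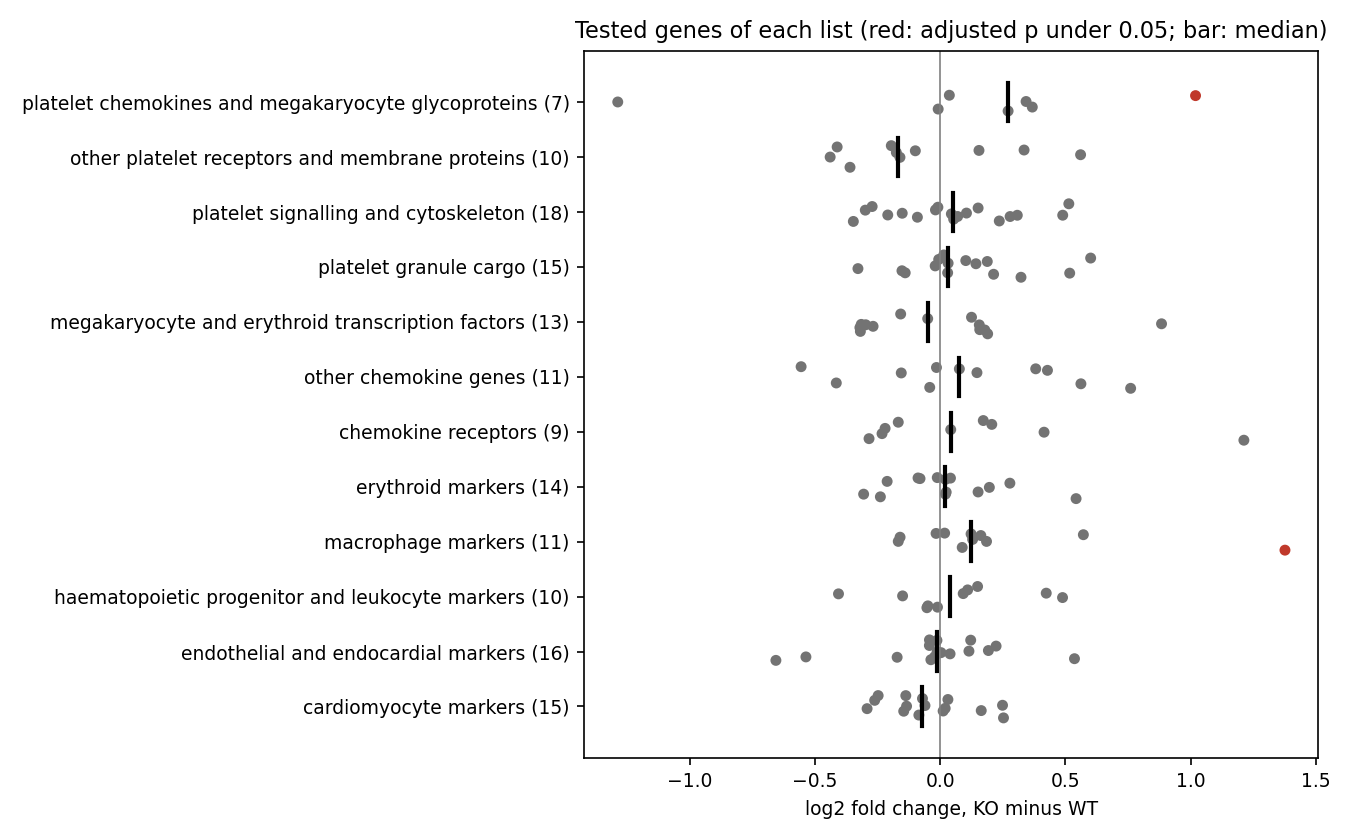
Log2 fold changes (KO minus WT) of the tested genes in each list, the number tested in brackets, with a bar at each list's median. Ppbp and the macrophage list's Lyz2 are the 2 genes past the threshold, and the medians of the lists lie between -0.17 and 0.27.

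The heart label was checked against its markers, and all 15 cardiomyocyte genes were above the low-signal limit on all 6 arrays (summed signal 353426 to 388245 in KO and 368215 to 399031 in WT). None of them passed in limma, with Myh6 at -0.25, Nppa at 0.25 and Ryr2 at -0.26. At an unadjusted p of 0.05 there were 5, against 2580 of all 12712 tested genes. Without KO array 1, 2 of the 15 passed, against 7.21% of all tested genes. The knockout was visible in Rnd3, whose brighter probe set read 5.89, 12.3 and 121 in KO and 909, 954 and 862 in WT. Xist, which marks female tissue, read 539, 8884 and 28.4 in KO and 10251, 12474 and 11878 in WT. The Gapdh signal ratio of 3' to 5' probe sets, a sign of RNA integrity, was 0.939 to 0.993 in KO and 1.09 to 1.13 in WT. The ratio differed between the groups without overlap. Xist was far below WT on KO arrays 1 and 3, and nearer to WT on KO array 2, the array with the highest Ppbp signal. Sex as read from Xist was thus partly confounded with genotype. The part of either in the Ppbp result was not tested beyond a fit with Xist as covariate. There Ppbp had 1.16 (SE 0.30, limma adjusted p = 0.0777), and 6 of all tested genes passed.

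Markers of the other blood and vessel cells that a heart could hold are given beside the Ppbp call. Of 14 tested erythroid markers 0 passed (0 at an unadjusted p of 0.05), with a median of 0.02. The 15 measured erythroid markers summed to 103371 to 120617 in KO and 101106 to 119414 in WT. KO array 1 and WT array 2 had the highest sums. Most of each sum came from the globin genes Hbb-bh1, Hba-x and Hbb-y, named here for their size. They read 37056, 27634 and 39647 on KO array 1. Rhd had 0.54 (SE 0.30), Epor -0.31 (SE 0.18) and Slc25a37 0.28 (SE 0.18). Of 11 tested macrophage markers, Lyz2, the lysozyme gene, rose (1.38, SE 0.25, adjusted p = 0.0374) and 10 did not pass. The count was 0 under 9 of the 19 alternative settings, among them each fit without KO array 2 or 3 or without WT array 1, 2 or 3. Those leave-out fits called 0 to 65 of all tested genes. Log2 fold changes were positive for 8 of the 11, with a median of 0.12, which was -0.16 without KO array 2, -0.12 with array weights and 0.84 with Xist as covariate. The 20 measured macrophage markers summed to 1744, 4024 and 2108 in KO and 1887, 2196 and 1790 in WT. KO array 2 had the highest of these sums, as it also had among progenitor (5691) and endothelial markers (14404). KO array 1 had the lowest macrophage sum. The largest parts of the sum on KO array 2 were Lyz2 (828), Csf1r (573) and Ctss (531), the last named here for its size. The macrophage receptor gene Csf1r, a defining marker named after its values were seen, read 254, 573 and 191 in KO and 286, 336 and 300 in WT, while Aif1, Cd14, Itgam and Cd163 were below the limit on all 6 arrays. Without KO array 2 the Ppbp log2 fold change was 0.88 (SE 0.23).

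Of 10 tested progenitor and leukocyte markers 0 passed (0 at an unadjusted p of 0.05). The 14 measured summed to 4930 to 5691 in KO and 5038 to 5364 in WT. Ikzf1 had -0.41 (SE 0.28), Myb 0.49 (SE 0.34) and Vav1 0.42 (SE 0.37). Without KO array 1, 1 of 16 endothelial markers passed, against 7.21% of all tested genes. With all arrays 0 of the 16 passed, with sums of 13345 to 14404 in KO and 13456 to 14303 in WT. At an unadjusted p of 0.05 there were 3, against 2580 of all 12712 tested genes. The 3 were Emcn (0.54, SE 0.16), Cldn5 (-0.66, SE 0.21) and Sox17 (-0.54, SE 0.21). The part of these cells in the Ppbp result was not tested.

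**Figure D4:**
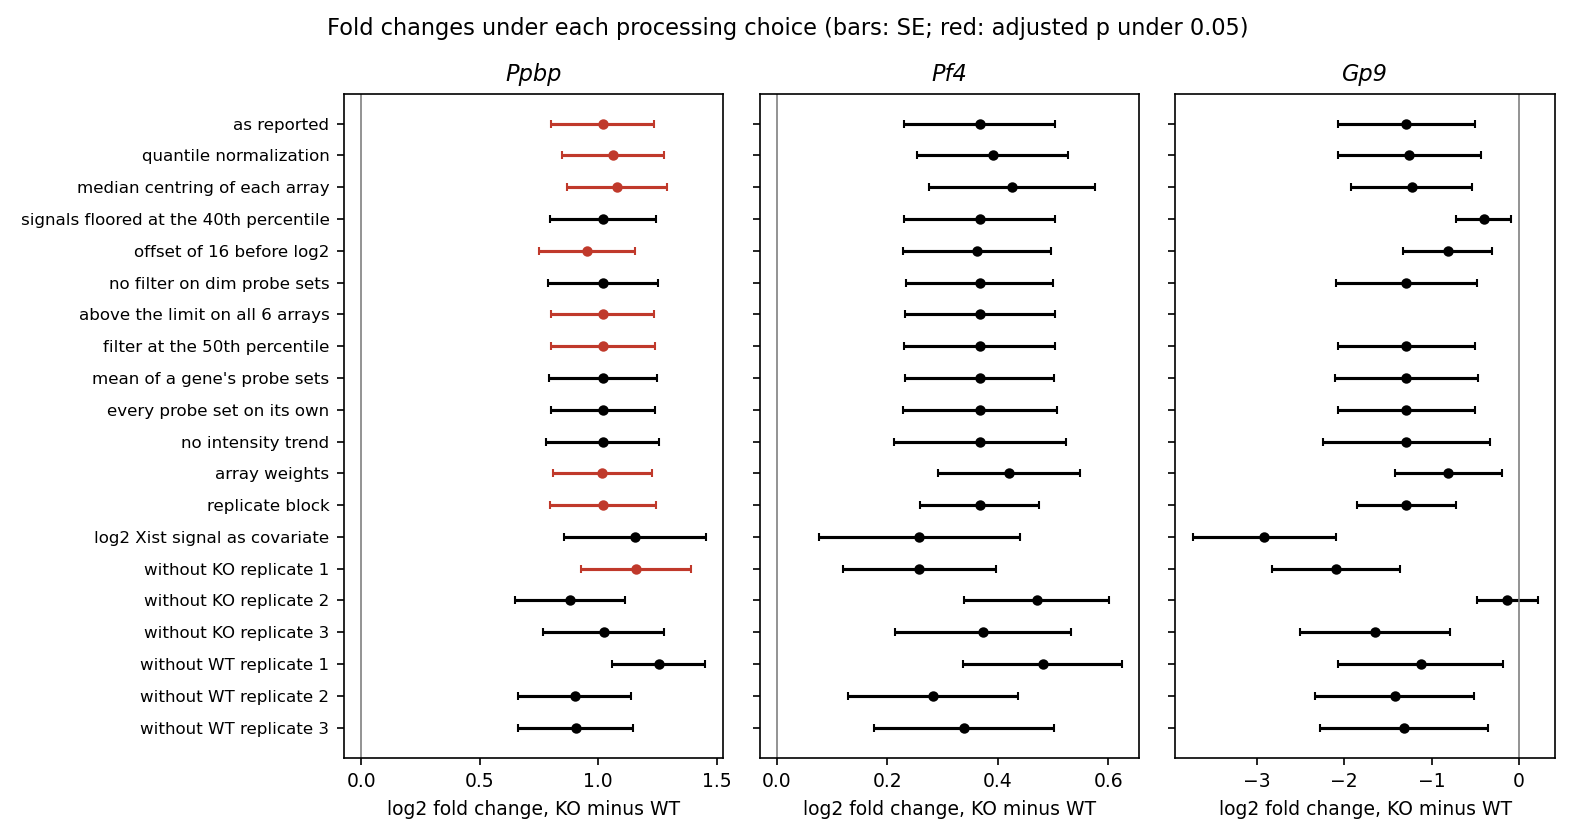
Log2 fold changes (KO minus WT, bars are SE) of Ppbp, Pf4 and Gp9 as reported and under each alternative setting, red where the adjusted p was under 0.05. Ppbp stays between 0.88 and 1.25 while its call comes and goes, and Gp9 moves to -0.13 without KO array 2; no Gp9 value exists where all 6 arrays had to be above the limit.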

How the data were processed

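The 6 arrays, 3 Rnd3 KO and 3 WT, measured heart RNA of E10.5 embryos, grouped by the genotype in their titles. Each deposited value is a probe set's signal intensity, linear and not logged. Per the submitters' processing notes the authors used MAS5 and Expression Console of Affymetrix, with no version or setting stated in these sources. For arrays, their number limits the precision. The 64 control probe sets were left out. Of the other 45037, 34945 had 1 gene symbol in the platform's annotation, 932 several, and 9160 were unnamed here. Values were taken to log2. The probe set with the highest mean stood for its gene, and a gene was tested if it was above the array's 40th percentile on at least 3 arrays, which left 12712 genes. Of the genes on the other lists, 11 matched no probe set of 1 gene and are not analysed here.

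The KO minus WT difference came from limma (version 3.58.1, under R 4.3.3; intensity trend, Benjamini-Hochberg over all tested genes, threshold 0.05). The procedure was also run on simulated data with independent noise, as a check of the code and not of the Ppbp call. Named were the platelet genes, and in each other list every gene past the threshold, otherwise the 3 smallest p-values; genes outside this rule are marked or listed as dim. Members and lists were chosen with earlier results of these data known. Promoter windows of all 9 genes were found in the RefSeq table (GRCm38.p6), each before the transcript start which that table uses. Exact permutation tests used SciPy 1.17.1 and figures matplotlib 3.10.9. Alternatives covered scaling, floor, offset, filter, probe set choice, variance model, weights, a replicate block, Xist as covariate and leaving out each array.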

Additional observations from a re-analysis of the deposited data

How the results depend on the processing

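As reported, 1 of the platelet genes (Ppbp) and 162 of all tested genes passed. Across the 13 settings that keep all arrays, the platelet count was 1 or 0. It was 0 with signals floored at the 40th percentile (Ppbp adjusted p = 0.0512), without a filter (0.07997), with probe sets averaged (0.124), with every probe set on its own (0.0617), without the intensity trend (0.206) and with Xist as covariate (0.0777). The size of the Ppbp change was the same in these fits apart from the last, where it was 1.16. Leaving out 1 array gave 0 to 1 platelet genes, the call being kept without KO array 1 (adjusted p = 0.0216).

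The count of all genes was 83 with median centring, 1 without a filter, 0 with probe sets averaged (limma; 1752 at an unadjusted p of 0.05), 1 without the trend, 542 with array weights, 291 where all 6 arrays had to be above the limit, and 6 with Xist as covariate. Leaving out 1 array gave 0 to 916, namely 916, 65 and 2 without KO array 1, 2 or 3, and 0, 0 and 4 without WT array 1, 2 or 3 (1944 and 1755 at an unadjusted p of 0.05 for the counts of 0). With median centring 80.7% of calls were higher in KO, against 61.7% as reported. The cause was not tested.

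Genes near 0 changed sign. Itga2b was -0.14 with Xist as covariate, -0.10 without KO array 1 and -0.02 without WT array 3, and over all arrays left out in turn it ran from -0.10 to 0.19. Gp1bb was 0.047 with quantile normalization and 0.051 with median centring, 0.08 without KO array 2, 0.08 without KO array 3 and 0.12 without WT array 1, and it ran from -0.18 to 0.12 over the arrays left out. Gp9 kept its sign but ranged from -2.91 with Xist as covariate to -0.13 without KO array 2. Gp5 (0.0089 to 0.40) and Treml1 (0.08 to 0.54) stayed positive and uncalled in all 19 settings. Same-numbered KO and WT arrays deviated together by r = 0.018, 0.057 and 0.015 over the tested genes. Between differently numbered arrays r ran from -0.037 to 0.021. Correlations this small, from 3 arrays per group, cannot settle whether the numbers pair the arrays, and the labels do not say. With the replicate number as a block, 1 platelet gene and 189 genes passed and Ppbp had 1.02 (adjusted p = 0.0494).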
